A study of Mus musculus with 313 samples.

Results

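The aLP cells in which a Rag2 transcript was detected were set against the aLP cells in which it was not. An aLP cell is an α4β7+ lymphoid precursor of the mouse fetal liver. The cells were chosen by their Rag2 Ct: 29 aLP cells had a value below 24, 21 of the 54 kept from sort 2 and 8 of the 92 kept from sort 3. The Ct counts the PCR cycles run before the fluorescence of a reaction becomes measurable, so a lower Ct stands for more cDNA. The remaining 33 and 84 cells had no Rag2 Ct or one of 24 or higher. A cell was kept if at least 5 assays had a Ct below 24, and 1 aLP cell was left out. The table held 313 cells of 3 sorted populations in all.

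Single cells were sorted at embryonic day 15 from pooled mouse fetal livers and measured by multiplex quantitative RT-PCR with 100 assays of lymphoid development genes, after 22 cycles of preamplification. The aLP gate took lineage-negative cells with IL7Rα and α4β7 on the surface and without PLZF and CXCR5. The 2 other populations shared the first 3 criteria and were ILCP cells, the common innate lymphoid cell precursors that are PLZF+ (62 and 90 cells of the 2 sorts), and LTiP cells, the lymphoid tissue inducer precursors that are PLZF- and CXCR5+ (14 cells). The cells came from 2 sorts, numbered 2 and 3 in the cell names. No treatment was given, and strain, genotype and the number of pooled livers are not stated in the labels.

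Rag2 encodes one subunit of the recombinase that cuts immunoglobulin and T cell receptor genes so that their segments can be joined. It is switched on together with Rag1 in early lymphoid progenitors and in developing B and T cells. Innate lymphoid cells do their work without rearranged receptors, but they descend from progenitors of the same family, which is why a Rag2 transcript is of interest in a fetal precursor.

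Rag2 was detected in 21 of 54 aLP cells of sort 2 (38.9%; exact 95% interval 25.9% to 53.1%) and in 8 of 92 of sort 3 (8.70%; 3.83% to 16.4%). In ILCP cells it was detected in 9 of 62 cells of sort 2 and 11 of 90 of sort 3, or 14.5% and 12.2%. In the 14 LTiP cells it was not detected, which allows a share of up to 21.4% (3 cells of the total, the limit used here for every count of 0). These intervals and limits cover counting error only. Most of the 29 cells thus came from sort 2. Cells of sort 3 are numbered up to 288, or 3 ranges of 96. The 8 cells lay in the lowest range (3 of 24 cells) and the highest (5 of 33 cells), and none of the 35 cells in between had Rag2, which allows a share of up to 8.57%. The labels do not say what these numbers stand for.

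The Rag2 Ct in the 29 cells had a lowest value of 17.4, a median of 20.1 and a highest value of 21.5. The limit of 24 therefore ran through an empty stretch of values. The 3 cells nearest to it on the inside had a Ct of 21.3, 21.4 and 21.5. Only 3 aLP cells had a Rag2 Ct above the limit, of 25.2, 25.4 and 26.6, and all of them belonged to sort 2. Those 3 cells had 15, 11 and 8 other assays detected and a Gapdh Ct of 17.03, 18.30 and 19.72, whereas the 3 cells just inside had 35, 36 and 34 other assays. Since Rag2 chose the cells, its own values are a description and were not tested.

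The transcripts behind the gate were checked in the 29 cells. Itga4, the α4 chain of the α4β7 integrin, was detected in 21 of 21 and 8 of 8 of them. Il7r, the receptor chain for interleukin 7, was found in 18 of 29. Of the transcripts of the proteins gated out, Zbtb16, which encodes PLZF, was detected in 3 cells and Cxcr5 in 4. The integrin partner Itgb7 was not on the panel.

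Cells with Rag2 gave more assays than cells without it. In sort 2 the 21 cells had between 21 and 41 other assays detected (median 37, mean 35.0), and the 33 cells without Rag2 had between 8 and 45 (median 32, mean 29.8). In sort 3 the 8 cells had between 31 and 38 (median 35, mean 34.6), and the 84 cells without Rag2 had between 18 and 47 (median 27, mean 27.5). The ranges overlapped in both sorts, and the difference of means was 5.24 assays in sort 2 and 7.13 in sort 3. No cell with Rag2 had fewer than 20 other assays, while 8 cells of sort 2 and 6 of sort 3 without Rag2 did. With 2 pools a side, an exact permutation test of this single value cannot go below p = 0.3333, and no test of it is given.

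**Figure D1:**
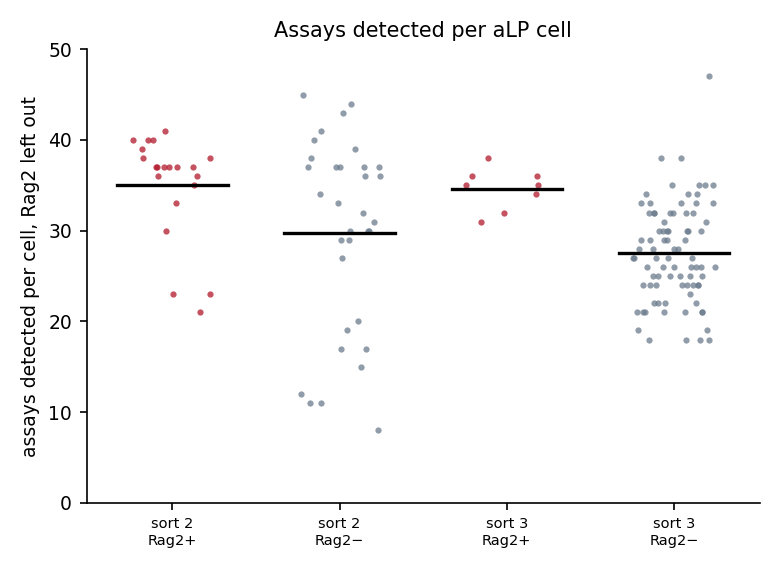
Number of assays with a Ct below 24 in each kept aLP cell, Rag2 left out, by sort and by detection of Rag2 (red with, grey without). Points are cells and black lines are means: 35.0 against 29.8 in sort 2 and 34.6 against 27.5 in sort 3.

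The share of cells with Rag2 differed with this number. In sort 2, none of the 8 cells with fewer than 20 other assays had Rag2, against 3 of 7 cells with 20 to 29, 14 of 30 with 30 to 39 and 4 of 9 with 40 to 49. In sort 3, all 8 cells with Rag2 lay among the 38 cells with 30 to 39 other assays, and none of the 47 cells with 20 to 29 had it. The mean Ct of the housekeeping transcripts Gapdh and Hprt was also lower in cells with Rag2, which gave more assays. In sort 2, cells with Rag2 had a mean Ct of 12.9 for Gapdh and 15.6 for Hprt, against 14.2 and 17.5 in cells without. In sort 3 the values were 13.6 and 16.6 against 14.9 and 17.6. Actb was at 12.5 against 13.9 in sort 2 but at 12.7 against 12.6 in sort 3. Differences are therefore given below for all cells and, further on, for cells matched on the number of assays.

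The main comparison asked which other transcripts went with Rag2. The level of an assay in a cell was 24 minus its Ct, or 0 where it was not detected, and the cells of each sort and Rag2 status were averaged into a pool, so that 4 pools were compared. A difference in cycles therefore reflects both how many cells gave a signal and how strong it was, and it is not a fold. Transcripts of 17 genes were higher with Rag2 among 64 assays tested (26.6%), and no assay was called lower (limma with the sort as a block, Benjamini-Hochberg adjusted p under 0.05; 19 assays, or 29.7%, at an unadjusted p under 0.05, all higher). The median difference over the 64 assays was 0.64 cycles, and 35 of them (54.7%) were higher in both sorts while 10 (15.6%) were lower in both. The fit has 1 residual degree of freedom and gave every assay the same standard error of 0.57 cycles, so its call amounts to a threshold on the mean difference between the smallest called value, 1.52, and the largest uncalled one, 1.28. Fitted without the sort as a block, 0 of the 64 assays passed (13, or 20.3%, at an unadjusted p under 0.05, all higher).

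**Figure D2:**
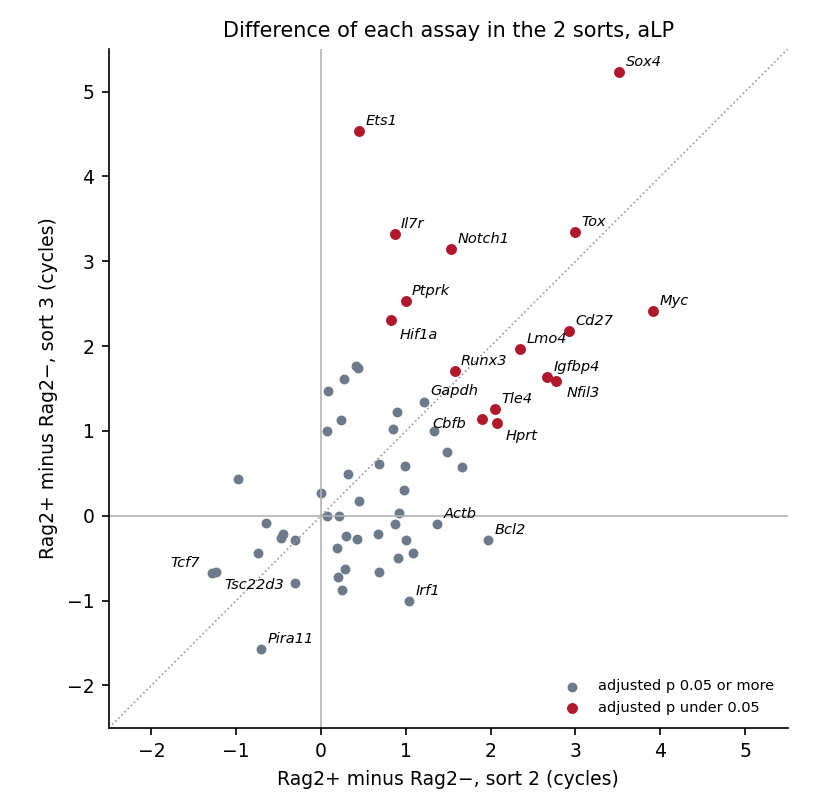
Difference in mean level between aLP cells with and without Rag2 for the tested assays reported here, in cycles, in sort 2 (horizontal) and sort 3 (vertical). Red points have an adjusted p under 0.05 in limma, and the dotted line marks equal differences. Sox4, Tox, Myc and Cd27 lie over 2 cycles above 0 in both sorts, whereas Ets1 (0.45 and 4.53) and Il7r (0.87 and 3.321) lie much higher in sort 3 than in sort 2.

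Sox4 had the largest difference of the 64 assays. It encodes an HMG-box transcription factor of lymphoid progenitors and stands in the list of early progenitor genes with Cd27 and Il7r. All 21 cells with Rag2 of sort 2 and all 8 of sort 3 detected Sox4, against 19 of 33 (57.6%) and 24 of 84 (28.6%) cells without Rag2. The Sox4 Ct of cells with Rag2 ran from 15.3 through a median of 16.8 to 19.9 in sort 2, and from 16.4 through 17.3 to 18.2 in sort 3. In the detecting cells without Rag2 it ran from 15.8 through 17.8 to 22.9 and from 16.7 through 19.4 to 20.9. The ranges overlapped, and all cells without a Sox4 signal lacked Rag2. Among detecting cells alone the mean level was still higher with Rag2, by 1.38 cycles (adjusted p = 0.0194 in limma). In that setting the housekeeping transcripts Hprt, Gapdh and Actb were higher by 1.48, 1.28 and 0.64 cycles (adjusted p = 0.0121, 0.0237 and 0.263 in limma). The Sox4 value among detecting cells was thus of the size of those of Hprt and Gapdh. Over all cells the mean Sox4 level was higher by 3.52 cycles in sort 2 and 5.23 in sort 3 (mean 4.37 ± 0.57, SE; adjusted p = 8.94e-09 in limma).

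Cd27 encodes a receptor of the TNF family found on lymphoid progenitors. It was detected in 18 of 21 and 5 of 8 cells with Rag2 and in 14 of 33 and 16 of 84 cells without. Its mean level was higher by 2.92 and 2.179 cycles (mean 2.55, adjusted p = 0.000437 in limma). Il7r was detected in 12 of 21 against 18 of 33 cells in sort 2, which are close to the same share, and in 6 of 8 against 22 of 84 in sort 3. Its difference was 0.87 in sort 2 and 3.321 in sort 3 (adjusted p = 0.00299). The 3 members of the early progenitor list on the panel thus all passed, out of 14 in the list and against 26.6% of all assays called, and their median difference was 2.55 cycles against 0.64 over all 64 assays. The list was chosen with earlier results of these data known, so these values are a description and not a test of the list. After the matching on assay number described further on, 2 of the 3 were higher in both sorts, against 34.4% of all assays.

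Of the homing receptors and integrins, Itga4 was higher by 1.66 and 0.57 cycles without passing (adjusted p = 0.162 in limma). The chemokine receptor gene Cxcr6 stood at 0.67 and -0.22, and Cxcr5 was lower by the values given further on.

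Myc encodes the growth-promoting transcription factor. Every cell with Rag2 in sort 2 and 7 of 8 in sort 3 detected it, against 21 of 33 and 53 of 84 cells without. The median Myc Ct in detecting cells was 16.3 against 18.4 in sort 2 and 17.5 against 19.1 in sort 3. Among detecting cells alone the mean Myc level was higher by 1.62 cycles, beside 1.48 for Hprt, 1.28 for Gapdh and 0.64 for Actb. Over all cells the mean Myc level was higher by 3.918 and 2.41 cycles (mean 3.1643, adjusted p = 1.02e-05). In the same list, Hif1a, the oxygen-regulated transcription factor, rose by 1.56 cycles (0.82 and 2.31; adjusted p = 0.0324). The survival factor Bcl2 was at 1.97 in sort 2 and -0.28 in sort 3 and did not pass. Tsc22d3, which encodes the glucocorticoid-induced leucine zipper protein, was at -1.24 and -0.66, was detected in 10 of 21 against 26 of 33 cells of sort 2, and in nearly all cells of sort 3, 8 of 8 against 81 of 84. It did not pass (adjusted p = 0.233).

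**Figure D3:**
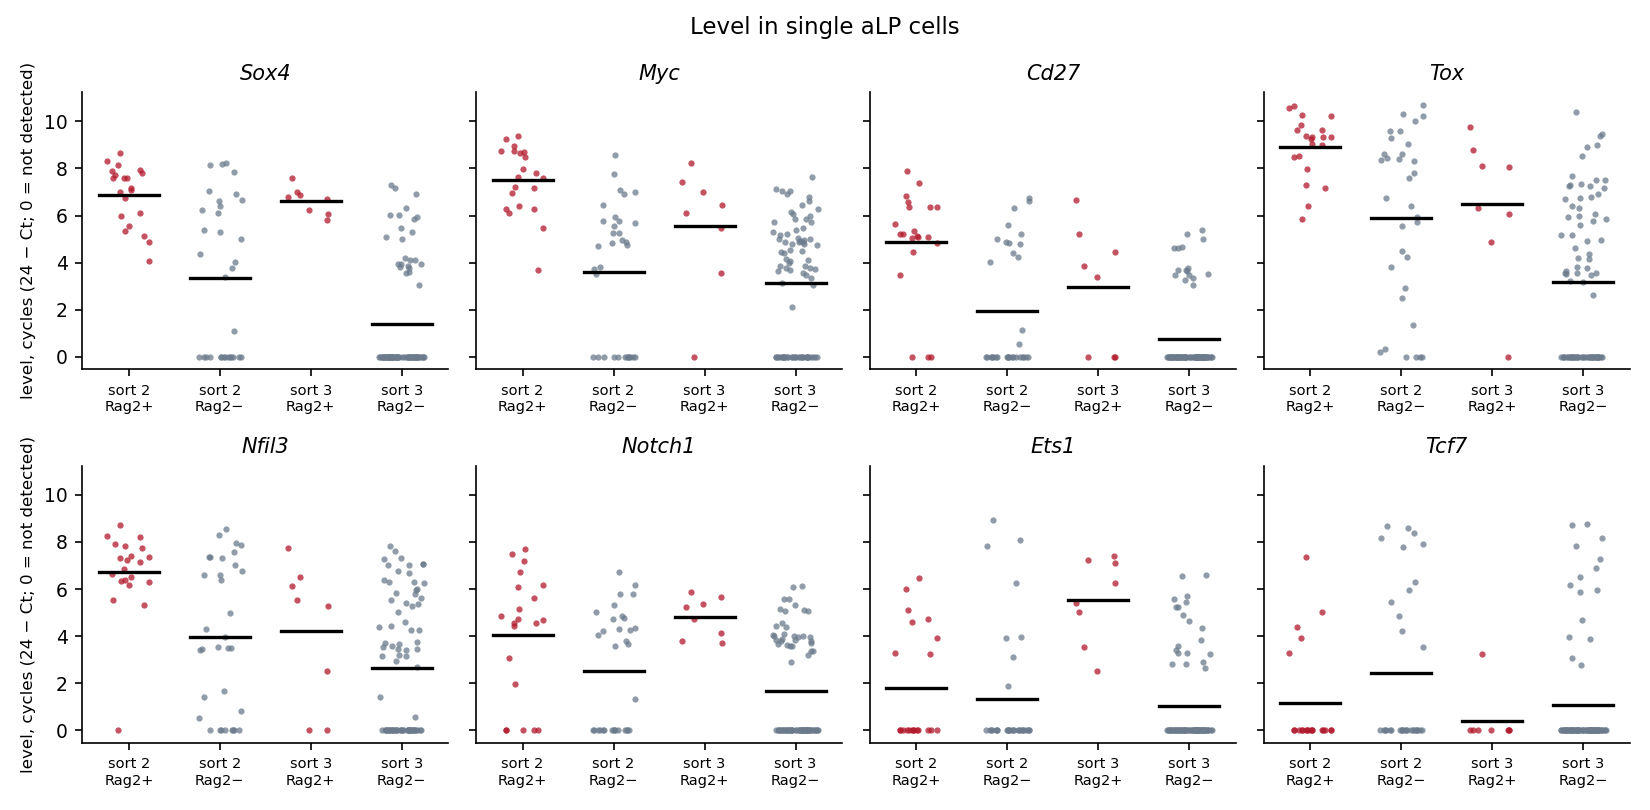
Level (24 minus Ct, with 0 for no detection) of 8 transcripts in single aLP cells by sort and detection of Rag2 (red with, grey without). Points are cells and black lines are pool means. Every red point lies above 0 for Sox4, and Ets1 is above 0 in all 8 red cells of sort 3 but in only 8 of 21 of sort 2. For Tcf7 most red points and most grey points lie at 0.

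Among the transcription factors of innate lymphoid precursors, 5 of 10 tested assays rose, against 26.6% of all assays, and the other 5 did not pass, 3 of which were lower in both sorts. After the matching on assay number described further on, 3 of the 10 were higher and 3 lower in both sorts, and their median difference was 0.099 cycles. Tox, an HMG-box factor needed for innate lymphoid cells, was detected in 21 of 21 and 7 of 8 cells with Rag2 and in 29 of 33 and 45 of 84 without. Its median level over all cells was 9.32 against 6.75 cycles in sort 2 and 7.20 against 3.3399 in sort 3, and the mean differed by 2.998 and 3.342 (mean 3.170, adjusted p = 1.02e-05). Nfil3, a basic leucine zipper factor at the start of this lineage, was detected in 20 of 21 and 6 of 8 cells against 25 of 33 and 44 of 84, with differences of 2.77 and 1.59 (adjusted p = 0.00241). Ets1 depended on the sort. It was detected in 8 of 21 against 8 of 33 cells in sort 2, but in 8 of 8 against 20 of 84 in sort 3, with differences of 0.45 and 4.53 (mean 2.49, adjusted p = 0.000536 in limma). That p-value uses the standard error shared by all assays, which does not reflect this gap between the sorts. Ets1 was called under 11 of the 22 alternative settings that kept levels in cycles. It was not called with limma's robust prior or with 8 pools in 1 fit. Runx3 was higher by 1.58 and 1.71 cycles (adjusted p = 0.0256), and Sox4, given above, is the fifth.

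The 5 other tested members of that list did not pass. Tcf7, which encodes the TCF-1 factor of T cells and innate lymphoid precursors, was detected in 5 of 21 and 1 of 8 cells with Rag2 and in 12 of 33 and 15 of 84 without. Its differences were -1.28 and -0.68 cycles (adjusted p = 0.227). Zbtb16 was found in 3 of 21 and 0 of 8 cells against 8 of 33 and 3 of 84, with differences of -0.44 and -0.22. Rora, a nuclear receptor of type 2 innate lymphoid cells, was at -0.65 and -0.09. Gata3 was detected in 3 of 21 against 3 of 33 cells of sort 2 and in no cell of sort 3, and Id2 differed by 0.07 and -0.01. Bcl11b and Lef1 were too rarely detected to test.

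Tcf7, Zbtb16 and Cxcr5 were counted together per cell, a set chosen after their values were seen. At least 1 of the 3 was detected in 10 of 21 and 1 of 8 cells with Rag2 and in 13 of 33 and 15 of 84 without. At least 2 were detected in 2 of 21 and 0 of 8 cells with Rag2 and in 11 of 33 and 8 of 84 without. Tcf7 and Cxcr5 were found together in 1 of 21 and 0 of 8 cells with Rag2, against 10 of 33 and 7 of 84 cells without. In cells without Rag2, each Cxcr5-positive cell (10 and 7) thus also had Tcf7, whereas 1 of the 4 Cxcr5-positive cells with Rag2 did. These are counts of cells and were not tested.

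Of the transcripts of lymphoid tissue inducer cells, 0 of 5 tested passed. Cxcr5, the receptor that guides these cells to lymph node sites, was detected in 4 of 21 and 0 of 8 cells with Rag2 and in 10 of 33 and 7 of 84 without, with differences of -0.75 and -0.44. Ahr, the aryl hydrocarbon receptor, was at -0.31 and -0.79, lower in both sorts as well. Lta, a ligand of the TNF family, was at -0.98 in sort 2 and 0.43 in sort 3.

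Transcripts that mark other innate lines did not pass either. In the list of type 1 cells, Il2rb was at -0.48 and -0.26 cycles, Il18r1 at 0.07 and 0.99 and Il12rb2 at 0.68 and -0.66. In the list of type 2 cells, Il1rl1, which encodes the interleukin 33 receptor, was at 0.68 and 0.61. The interferon receptor chain Ifngr1 was at 0.99 and 0.58. The metalloprotease gene Adam10 was at -0.31 and -0.29.

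Notch1 encodes the receptor that directs progenitors to the T lineage, and it was the 1 called member of 8 tested in the T lineage and Notch list, against 26.6% of all assays. It was detected in 16 of 21 and 8 of 8 cells with Rag2 and in 18 of 33 and 33 of 84 without. The mean level was higher by 1.54 and 3.1407 cycles (mean 2.34, adjusted p = 0.00114). Notch2 was detected in every cell of all 4 pools. The T cell signalling genes Lck and Lat were rare. Lck was detected in 4 of 21 and 3 of 8 cells with Rag2 against 4 of 33 and 6 of 84, with differences of 0.24 and 1.13, and Lat in 4 of 21 and 1 of 8 against 4 of 33 and 1 of 84, with 0.32 and 0.49. Neither passed, and Bcl11b, the factor of T cell commitment, was detected in 0 of 54 and 0 of 92 aLP cells, which allows shares of up to 5.56% and 3.2609%.

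The B lineage markers on the panel were close to 0. Ebf1 and Pax5, which drive B cell commitment, were each detected in 1 of the 29 cells with Rag2, in 2 different cells of sort 3 (1 of 8 each, with a Ct of 18.6 and 18.7), and in none of the 33 and 84 cells without Rag2. The exact interval of 1 of 8 runs from 0.32% to 52.7%. Of the B lineage list, 0 of 3 tested assays passed. Foxo1 was at 0.27 and 1.61 cycles, Bcl11a at 0.91 and -0.50 and Irf8, a factor shared with myeloid cells, at 0.28 and -0.63. Irf8 was detected in 16 of 21 and 6 of 8 cells with Rag2 and in 24 of 33 and 67 of 84 without. Pira11, listed with the myeloid genes, was at -0.70 and -1.58 (adjusted p = 0.162), with 1 of 21 and 1 of 8 cells against 7 of 33 and 34 of 84. Itga2b, the only panel gene of the erythroid, megakaryocyte and mast list, was at 0 in all 29 cells and was detected in 1 of 33 and 1 of 84 cells without Rag2.

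Of the Ikaros and Runx list, 2 of 3 tested assays rose, against 26.6% of all assays. Runx3 and Cbfb, the subunit that Runx proteins bind, rose by 1.64 and 1.52 cycles (adjusted p = 0.0256 and 0.038), while Runx1 was higher by 1.49 and 0.75 without passing (adjusted p = 0.162). After the matching on assay number described further on, the mean difference was 0.15 for Runx3, 0.52 for Cbfb and 0.78 for Runx1. None of them passed then, and the median over all 64 assays was 0.14. Of the Groucho co-repressors, Tle4 rose by 1.66 cycles (2.05 and 1.26; adjusted p = 0.0254), Tle3 was at 0.85 and 1.03 and Tle1 at 0.19 and -0.38. Of the E and Id proteins, the E protein gene Tcf3 was at 1.34 and 1.00 (adjusted p = 0.152). In the imprinted and IGF list Igfbp4, which encodes an IGF-binding protein, rose by 2.1495 cycles (2.67 and 1.63; adjusted p = 0.00241), and the imprinted genes H19 (0.42 and 1.77) and Cdkn1c (0.44 and 1.74) did not pass. Lmo4, which encodes a LIM-domain cofactor, was detected in all 29 cells with Rag2 and rose by 2.1535 cycles (2.35 and 1.96; adjusted p = 0.00241). Ptprk, a receptor tyrosine phosphatase gene, was detected in 6 of 21 and 4 of 8 cells with Rag2 and in 4 of 33 and 0 of 84 without, and rose by 1.76 cycles (1.00 and 2.53; adjusted p = 0.0161).

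The housekeeping transcripts stood among these values. Hprt rose by 1.58 cycles (2.08 and 1.09; adjusted p = 0.0316), Gapdh was higher by 1.22 and 1.35 without passing (adjusted p = 0.102), Actb was at 1.37 and -0.10, and Tbp was detected in sort 3 only, with a difference of 0.27. Of the 17 called genes, 5 (Tle4, Runx3, Hprt, Hif1a and Cbfb) differed by 1.66 cycles or less, close to these housekeeping values. With each cell scaled to its own Actb, Gapdh and Hprt, 8 assays passed. Of these, 7 were called before scaling and remained higher (among them Sox4, Tox, Myc, Cd27, Ets1 and Notch1), and Tsc22d3 passed as lower. This scaling moved the median of the 64 assays from 0.64 to 0.087 cycles.

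Cells without Rag2 were then weighted, within each sort, to the same spread over bins of 10 assays as cells with Rag2. This used 25 cells of sort 2 and 30 of sort 3 without Rag2, and brought their mean number of assays to 34.9 and 32.6, against 35.0 and 34.6 with Rag2, so that in sort 3 a gap of about 2 assays remained. The number includes the assay compared. The median difference over the 64 assays became 0.14 cycles, and 0 of them passed (at an unadjusted p under 0.05, 4 higher, or 6.25%, and 2 lower, or 3.125%). Before matching, 15 assays (23.4%) were over 1 cycle higher in both sorts. After it 4 (6.25%) were, among them Sox4 (2.46 and 3.99), Myc (2.83 and 2.25) and Cd27 (2.37 and 1.15). Notch1 (0.92 and 2.71) and Ptprk (0.79 and 2.53) stayed above 0 in both sorts, as did 12 of the 17 called genes in all, against 22 of all 64 assays (34.4%). The called genes were picked for large differences in these same cells, and matching changed only the weights of cells without Rag2. Their larger share after matching is therefore a description and not independent support.

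Other called genes had a smaller difference after matching in both sorts. Tox stood at 1.503 and 0.49 cycles, Lmo4 at 0.50 and 0.74, Runx3 at 0.31 and -0.01, Nfil3 at 1.79 and -0.17, Igfbp4 at 1.97 and -0.22 and Il7r at -0.17 and 2.67. Ets1 kept its contrast between sorts, at 0.10 and 3.461. Bins of 5 assays, a setting added after seeing the data, gave 3 called assays. Of these, 2 were higher (3.125%), among them Sox4 (2.83 cycles, adjusted p = 0.0027), and Tcf7 was lower (1.56%; -3.26, adjusted p = 0.000545). In these narrower bins Tox was at -0.23 and Runx3 at -0.08. Matched in bins of 10 and fitted without the block, 2 assays (3.125%) passed, among them Sox4 (adjusted p = 0.0442).

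**Figure D4:**
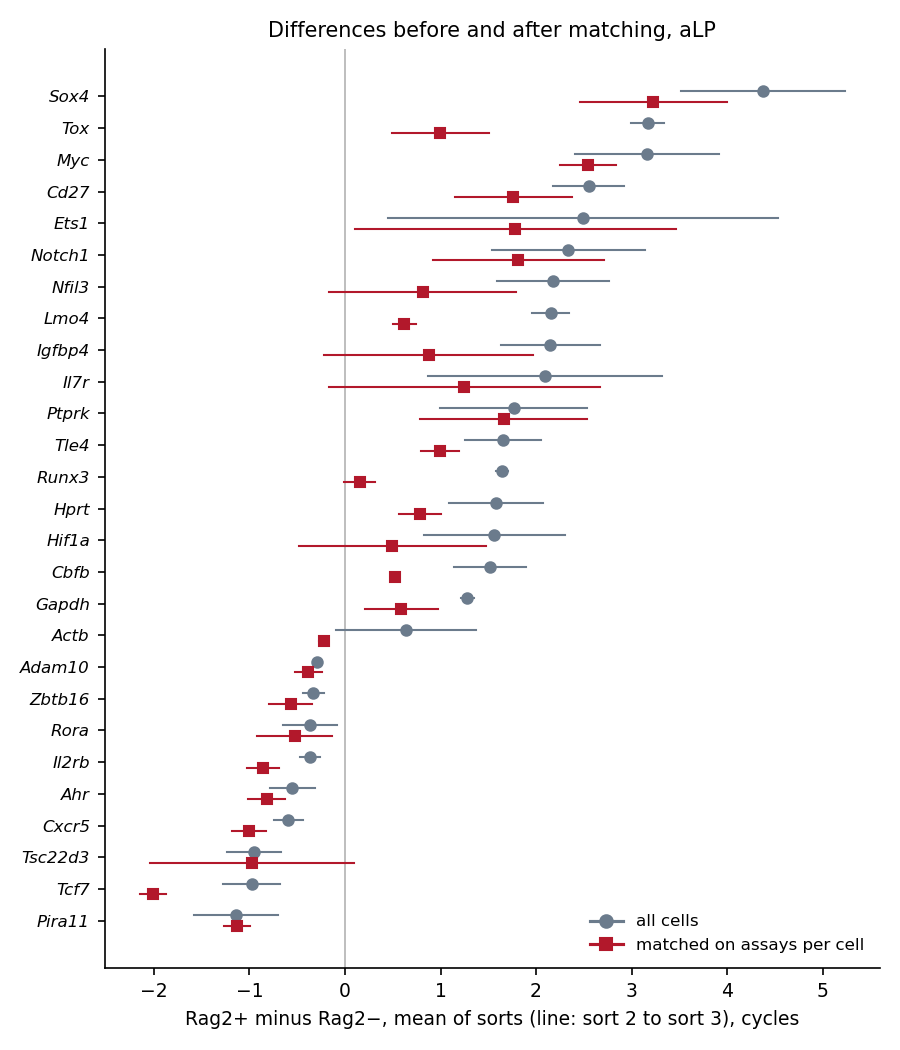
Difference in level between aLP cells with and without Rag2 for the called genes and the assays lower in both sorts that are reported here, with Gapdh and Actb. Grey circles are means of the 2 sorts over all cells, red squares are means after matching on the number of assays in bins of 10, and each line runs from the sort 2 to the sort 3 value. Sox4, Myc and Cd27 keep both ends of the red line over 1 cycle, and Tcf7 moves to -2.01.

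The 10 assays lower in both sorts included, from the most negative mean, Pira11, Tcf7, Tsc22d3, Cxcr5, Ahr, Il2rb, Rora, Zbtb16 and Adam10. None of the 10 passed in the main comparison. After matching, 9 of them were lower in both sorts, all but Tsc22d3 (-2.04 and 0.09), among 14 assays (21.9%) lower in both. These assays were picked for being lower in the same cells, and matching lowered the median difference over all tested assays. That they stayed lower is therefore not an independent check. Tcf7 was then at -1.87 and -2.15 cycles and Cxcr5 at -1.18 and -0.83.

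Joint detection was counted cell by cell, without a test, for 3 genes with large differences in the main comparison. Since those differences come from the same cells, higher joint detection with Rag2 is a description and not further support. Sox4, Cd27 and Myc were found together in 18 of 21 and 5 of 8 cells with Rag2, and in 11 of 33 and 7 of 84 without. Among cells with at least 30 other assays, the counts were 16 of 18 and 5 of 8 with Rag2 and 10 of 21 and 7 of 31 without. Cells with all 3 transcripts but no Rag2 signal thus existed in both sorts.

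Within sort 3 the difference was also taken in the lowest and the highest range of cell numbers, with 3 and 5 cells with Rag2. For Sox4 the difference was 5.10 cycles in the lowest range of numbers and 5.37 in the highest. For Myc it was 2.59 and 2.98, for Cd27 2.94 and 1.67 and for Ets1 4.28 and 4.09. Other assays differed more between the ranges. Il7r was at 5.01 and 2.1516, Tox at 4.82 and 2.67, Runx3 at 4.24 and 0.88 and H19 at 4.26 and -0.19. Tcf7 was at 0.75 in the lowest range and at -1.33 in the highest, and Irf8 at -3.03 and 0.25. Of 51 named assays, 29 in the lowest range and 20 in the highest lay further from the main value than 1 SD of the 2 sorts.

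The 3 low-yield cells with a late Rag2 Ct weighed heavily. When they were counted as cells with Rag2, 0 of 64 assays passed (10 at an unadjusted p under 0.05) and the mean difference in the number of other assays went from 6.18 to 3.78. Tox was called under 16 of the 22 alternative settings that kept levels in cycles, Sox4 under 18, Myc under 16 and Cd27 under 15. The shares of detecting cells alone, in place of levels, gave 0 called assays (9 at an unadjusted p under 0.05), as did a detection limit at a Ct of 22 (17). With 1 sort left out, 8 assays passed within sort 2 alone and 10 within sort 3 alone, with the spread taken from the ILCP pools.

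The same split was made in ILCP cells, which the choice of aLP cells did not use. ILCP cells with Rag2 did not give more assays: the means were 39.2 with and 40.8 without in sort 2, and 39.4 and 40.9 in sort 3. Of 80 assays tested, 2 rose (2.5%) and 3 fell (3.75%). Sox4 was among those that rose, by 3.41 and 1.48 cycles (mean 2.44, adjusted p = 0.00202). Rora (-2.08), Megf10 (-1.98) and Ets1 (-1.91) fell. In sorts 2 and 3 Rora was at -2.756 and -1.40, Megf10 at -2.09 and -1.86 and Ets1 at -3.06 and -0.75. The standard error shared by all assays does not reflect this gap between the sorts for Ets1. Sox4 was detected in 8 of 9 and 11 of 11 ILCP cells with Rag2 against 28 of 53 and 68 of 79. Without the block, 0 of the 80 assays passed in ILCP cells (14 at an unadjusted p under 0.05).

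**Figure D5:**
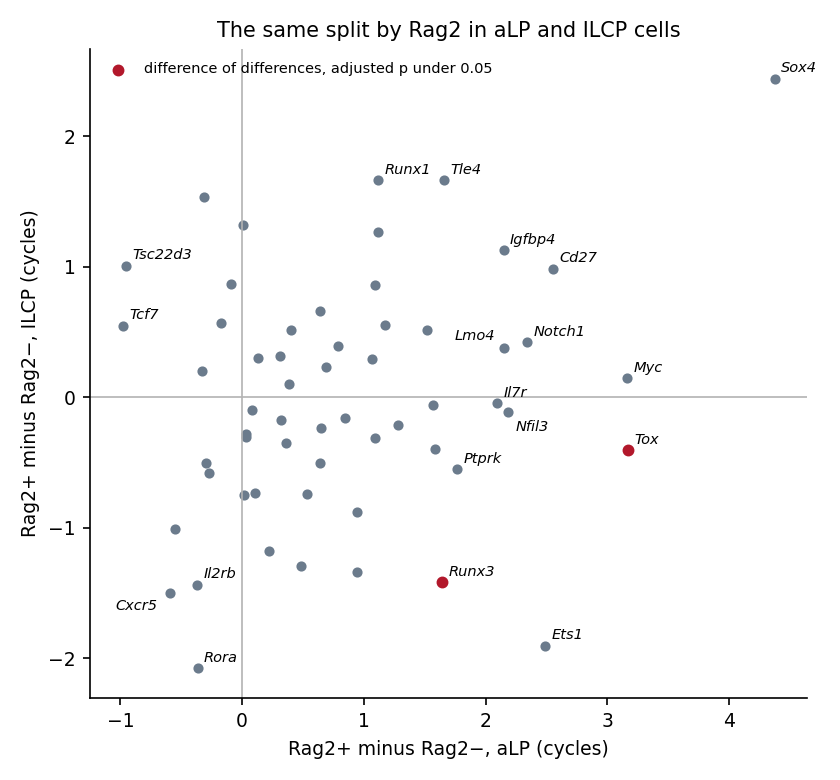
Mean difference in level between cells with and without Rag2, in cycles, in aLP cells (horizontal) and ILCP cells (vertical), for the assays reported here that were tested in both. Sox4 is over 2 cycles higher in both populations, and the red points, Tox and Runx3, are those whose difference between the populations had an adjusted p under 0.05.

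The difference between the 2 populations was tested itself, over 8 pools and 84 assays. It was called for 2 assays (2.38%), both with a larger difference in aLP cells: Tox, by 3.574 ± 0.54 cycles (SE), and Runx3, by 3.06 ± 0.44 (adjusted p = 0.0484 for each in limma). Tox was detected in 9 of 9 and 9 of 11 ILCP cells with Rag2 and in 53 of 53 and 74 of 79 without, with differences of 0.11 and -0.92, so that most ILCP cells of every pool detected it. Runx3 was at -1.59 and -1.24 in ILCP cells. Neither difference was called after matching on the number of assays or with each cell scaled to its median Ct, when 0 of 84 assays passed (10 and 16 at an unadjusted p under 0.05). For Sox4 (1.93, adjusted p = 0.307) the test did not separate the populations. The other 3 of the 5 largest contrasts were Ets1 (4.39, adjusted p = 0.208), Myc (3.02, adjusted p = 0.127) and Ptprk (2.32, adjusted p = 0.155).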

How the data were processed

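Per the file headers, the deposited table holds non-normalized Ct values, with missing entries where no Ct was recorded. The labels' protocols do not state the rule for a missing Ct. Of 11450 Ct values, 447 lay at 24 or higher and counted as not detected. Precision is limited by the number of cells and of sorts. Each cell's sort was read from its name, although no label defines it.

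Cells are not replicates, so pool means were compared (cells with and without Rag2 of 1 sort) with limma 3.58.1 in R 4.3.3 (lmFit, eBayes), with the sort as a block because both kinds of cell came out of the same sorted material. With the 2 sorts, the deviations of same-sort aLP pools from their group means correlated at 0.44 over the 64 assays (0.19 in ILCP, 80 assays). P-values rest on the spread between 2 sorts, which may be technical. In the main aLP and ILCP fits limma pooled that spread over all tested assays, which is why every assay got the same standard error. The assays were measured in the same cells and are not independent, so a very small p-value does not stand for replication over many sorts. Assays detected in at least 10% of kept aLP cells of a sort, whatever their Rag2, were tested; Rag2 was not. Of the assay names, 98 were found as symbols and 1 as a synonym in the RefSeq gene table (GRCm38.p6); Pira11 was kept as given.

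The members and the gene lists were chosen with earlier results of these data known. Named genes were up to 12 assays a direction with 1 sign in both sorts, called first and then by size, up to 4 per list, up to 5 of the contrast with ILCP cells, and gate and housekeeping genes. Results of 2 assays are not reported here, although both were in the fits and the counts. The fit was run on simulated pools drawn from all kept aLP cells of each sort, whatever their Rag2, with a known shift added to some assays. Those pools had no built-in gap in assay number, so the run cannot check the calls against such a gap. Alternatives covered the detection limit, scaling, matching, cell and assay filters, weights, the prior and each sort alone. Tables were made in Python 3.11.15 (pandas 2.3.3) and plots with matplotlib 3.10.9.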

Additional observations from a re-analysis of the deposited data

Results flagged for a closer look

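For Tox and Runx3 the Rag2 difference in aLP cells exceeded that in ILCP cells by 3.574 and 3.06 cycles in limma's test of the difference itself (adjusted p = 0.0484 for each). Neither was called after matching on the number of assays or with each cell scaled to its median Ct.

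Among the 9 ILCP cells of sort 2 with Rag2, 1 cell stood apart in 5 assays. Its Ct was 22.98 for Zbtb16 (next highest 16.95), 21.75 for Cbfb (17.01), 21.77 for Hif1a (18.9), 17.26 for Itga4 (14.9) and 17.57 for Actb (14.2). It had 29 other assays, the lowest number of the 9, and the highest Gapdh Ct of the 9, 15.53 (mean 13.5). By chance about 1 in 20 such sets gives a value this far out, and 29 sets were examined. The 5 values come from 1 cell and are not independent, so their number cannot be set against that rate.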

How the results depend on the processing

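The 17 calls in aLP cells became 0 with no replicate block, with a detection limit at Ct 22, with any Rag2 Ct counted as detected, with matching in bins of 10 and with shares of cells; 11 with a limit at Ct 28, 8 with housekeeping scaling (7 higher, 1 lower), 9 with at least 25 other assays, 10 with detecting cells only, 6 with no assay filter, 3 with bins of 5, 2 with matching and no block, and 8 to 10 with 1 sort. Other settings gave 12 to 17. In ILCP cells the 5 calls became 0 when the pairing by sort was dropped (no replicate block), with 8 pools in 1 fit and with either sort alone (0 to 0; 8 to 19 at an unadjusted p under 0.05), and 8 with matching. The 2 calls of the contrast became 0 with median scaling and with matching. The 6.18 assays became 3.78 with any Rag2 Ct.

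Named assays whose mean difference changed sign were uncalled, except Tox (-0.231) and Runx3 (-0.0834) in bins of 5. In bins of 5 the others were H19 (-0.0214), Gata3 (-0.0519), Id2 (-0.0702), Actb (-0.0804), Cdkn1c (-0.0933), Cxcr6 (-0.188), Tbp (-0.190), Tle3 (-0.325), Il12rb2 (-0.568), Tle1 (0.0361) and Irf8 (0.251). In bins of 10, with or without the block, they were Id2 (-0.0126), Cxcr6 (-0.0310), Bcl2 (-0.0619), Tbp (-0.0930), Actb (-0.225) and Il12rb2 (-0.294). Housekeeping scaling gave Cxcr6 -0.0173, Tbp -0.0183, Id2 -0.0689, Il12rb2 -0.172, Tle3 -0.186 and Actb -0.519, and median scaling Id2 -0.0382, Il12rb2 -0.0946 and Actb -0.107. Any Rag2 Ct gave Id2 -0.0121, Il12rb2 -0.112 and Actb -0.172. At least 25 other assays gave Il12rb2 -0.0841, Actb -0.12 and Tle1 0.00826, and at least 15 gave Il12rb2 -0.0389. Detecting cells only gave Lck -0.0238 and Cdkn1c -0.366, a limit at Ct 22 gave Tbp -0.00726, and shares gave Id2 -0.785 and Tle1 0.298 percentage points. Within 1 sort the mean ran from -0.00641 to 0.0703 for Id2, -0.0982 to 1.37 for Actb, -0.22 to 0.67 for Cxcr6, -0.284 to 1.97 for Bcl2, -0.496 to 0.91 for Bcl11a, -0.657 to 0.68 for Il12rb2, -0.98 to 0.432 for Lta, -0.38 to 0.191 for Tle1 and -0.63 to 0.284 for Irf8. The causes were not tested.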
